A study of Gossypium hirsutum with 120 samples.

Results

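The postsecretory floral nectary of upland cotton (Gossypium hirsutum, the line TM-1) was compared with tissue taken next to it, 3 RNA samples against 3. The deposited table of the series holds 51 RNA samples. Bracteal and circumbracteal samples of the secretory stage and some foliar ones have no column in it. Members were taken from the sample labels alone: 3 nectary samples of the postsecretory stage, which was collected the day after the flower opened, and 3 samples labelled as tissue near the floral nectary at the same stage. All plants were untreated, carried no transgene, and were raised in growth chambers. Each RNA sample pooled several nectaries or the matching pieces of adjacent tissue, and each was sequenced in 2 runs, which were summed here. The samples are dissected tissues of many cell types, so that fewer cells of a type and less RNA per cell cannot be told apart in any of the values.

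Cotton floral nectaries are patches of multicellular glandular hairs, or papillae, on the inner base of the calyx. In the current model of nectar secretion, made mostly from Arabidopsis, starch is broken down, sucrose is rebuilt and leaves the cell through the plasma membrane exporter SWEET9, and the cell wall invertase CWINV4 splits it outside, which draws more sugar and water along. After anthesis the gland stops secreting and the flower is shed or goes on to form a boll.

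Values are the deposited whole-number signal per gene, summed over both runs and scaled so that the upper quartile of each RNA sample agreed. No correction for transcript length was made here, and the deposited values may already be scaled for length in a way that is not described. Levels were therefore compared between tissues for one gene. Where genes are called more or most abundant, the order is that of this signal only. Genes are given either as single cotton genes or by their best Arabidopsis match, in which case the value sums all cotton entries with that match and homeologs are not separated. Differences are log2 fold changes, nectary over adjacent tissue, of value + 1, with the standard error (SE) from limma fitted over all 51 RNA samples. This scale understates the change of genes near 0, and values near 10 rest on few reads. A gene was called where its Benjamini-Hochberg adjusted p was under 0.05 and its change at least 1.5-fold. The p-values rest on a spread between pooled samples that is shared over all 51 RNA samples, not on that of the 6 compared alone. The typical spread within the nectary group was 0.59 of the shared one, and within the adjacent group 0.44.

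The nectary samples summed to between 9519435 and 11118721 in the table before scaling, and the adjacent samples to between 9142064 and 9901547. Between 42759 and 45877 entries were above 0 in nectary samples and between 45820 and 46027 in adjacent samples. The 5 most abundant entries took 6.97 to 16.5% of the nectary totals and 11.1 to 12.9% of the adjacent totals. The 2 runs of a sample correlated at 0.963 to 0.980 in nectary and at 0.931 to 0.949 in adjacent tissue (Pearson's r over log2 values of entries, which are not independent replicates). Over all 51 RNA samples the median was 0.969 and the lowest, adjacent sample 1, 0.931. Runs 1 and 2 summed to 5307745 and 3834319, 5179913 and 4215709, and 5665953 and 4235594 in adjacent samples. They summed to 4903766 and 5064162, 6066023 and 5052698, and 4718855 and 4800580 in nectary samples. The part of this imbalance in the contrast was not tested.

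Of 46113 cotton genes tested, 1871 differed between nectary and adjacent tissue, which is 4.06% (873 higher in the nectary, 1.89%, and 998 lower, 2.16%). Without nectary sample 2 the count was 1083, and without adjacent sample 1 it was 1117. In 1827 of the 1871 the nectary and adjacent samples did not overlap. This follows largely from the call and is not separate support, and the share over all genes tested is not given here. Changes of at least 4-fold were found in 599 genes higher in the nectary and in 835 genes lower. All 3 nectary values were 0 in 166 called genes, and all 3 adjacent values were 0 in 121. Among 14133 Arabidopsis matches, 838 were called (5.93%), 410 of them higher in the nectary (2.90%) and 428 lower (3.03%). The median log2 fold change of all matches was -0.03. Counts of called members in families and lists are to be read against these shares.

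**Figure D1:**
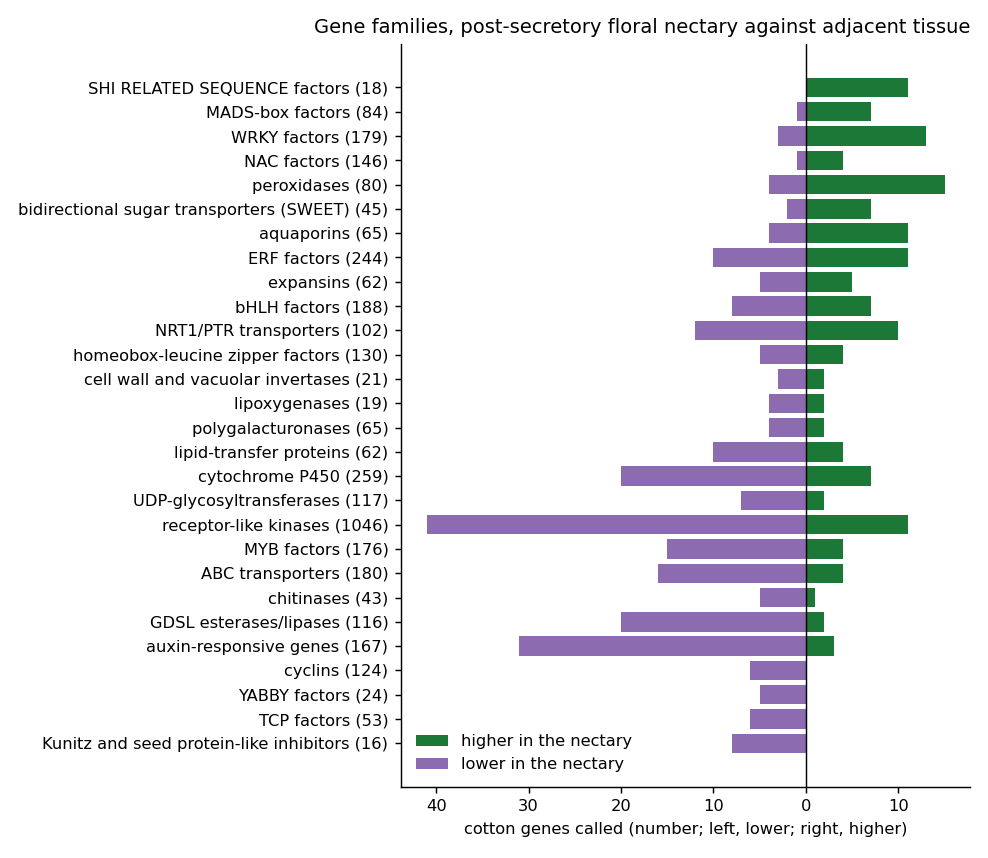
Number of cotton genes called lower (bars to the left) and higher (bars to the right) in the postsecretory nectary than in adjacent tissue, for gene families with at least 5 called members, with the number tested in brackets. The SHI RELATED SEQUENCE factors had 11 genes higher and 0 lower, while auxin-responsive genes had 3 higher and 31 lower.

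Regulators of organ development were among the genes that rose. The SHI RELATED SEQUENCE (SRS) family of zinc-finger factors, which in Arabidopsis promote local auxin synthesis in the gynoecium and stamens, had 11 of its 18 tested cotton genes higher in the nectary and 0 lower, with 15 higher at an unadjusted limma p under 0.05 and 0 lower. The called members rose by log2 fold changes of 1.54 to 8.68, and the family median was 3.12 against -0.03 for all cotton genes. The matches to SRS5 summed to 2052, 3219.8 and 3492 in nectary samples, against 6.98, 13.5 and 22 in adjacent tissue. Every nectary sample was far above every adjacent sample, and the log2 fold change was 7.68 (SE 0.43, limma adjusted p = 1.38e-15). A pair of cotton genes carried most of this signal. LOC107910209 had 1314, 2268 and 2102 in nectary samples and 1.97, 1.93 and 16.4 in adjacent tissue. LOC107887298 had 642, 1022 and 1416 in nectary samples and 0.984, 5.79 and 0 in adjacent tissue. Both are described as SRS5-like, and their log2 fold changes were 8.43 (SE 0.57) and 8.68 (SE 0.65).

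STY1 and LRP1, relatives of SRS5 in the same family, were also higher in the nectary but were clearly present beside it. STY1, a regulator of style development in Arabidopsis, had 292, 317 and 341 in nectary samples, against 43.8, 29 and 42.2 in adjacent tissue. The groups were separated by a wide gap, with a log2 fold change of 3.03 (SE 0.29, limma adjusted p = 3.66e-09). LRP1, first described in lateral root primordia, had 1143, 727 and 810.3 in nectary samples, against 136, 163 and 197 in adjacent tissue, a log2 fold change of 2.42 (SE 0.32). LBD11, a LOB domain factor, had 365, 744 and 545 in nectary samples, against 95.7, 114 and 164 in adjacent tissue, a log2 fold change of 2.11 (SE 0.47). Neither group reached the other in these genes.

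Of 15 tested genes on a list of nectary regulators, 6 were higher and 1 was lower, with a median of 0.49 against -0.03 over all matches. Leaving out 1 sample at a time gave 4 or 5 higher and 0 or 1 lower. The lower one was CRC, the YABBY factor on which nectary formation depends in Arabidopsis, at 0, 5.34 and 0 in nectary samples and 4.98, 33.8 and 13.4 in adjacent tissue. These values are near the lower limit of the table, the groups overlapped, and the call (limma adjusted p = 0.0128) was lost at 0.0778 without nectary sample 1, at 0.0935 without nectary sample 3 and at 0.124 without adjacent sample 2. Another called member, the gibberellin-inactivating enzyme GA2OX6, had 73.2, 297 and 32.5 in nectary samples and 0.997, 65.7 and 4.79 in adjacent tissue, with overlap. Its log2 fold change of 3.30 (limma adjusted p = 0.0144) had an adjusted p of 0.183 without nectary sample 2, 0.224 without adjacent sample 1 and 0.0805 without adjacent sample 3.

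Floral organ identity genes encode mostly MADS-box factors, which act in combinations that tell the whorls of a flower apart. Of 13 tested, 3 were higher in the nectary and 0 lower (4 higher and 0 lower at an unadjusted p under 0.05). They were the B-class genes AP3 and PI, which specify petals and stamens, and SHP1, which acts in carpels and fruit and, in Arabidopsis and petunia, also in nectaries. AP3 had 2117, 2443 and 3088 in nectary samples, against 235, 174 and 191 in adjacent tissue. PI had 380.0, 473 and 391 in nectary samples and was almost undetected in adjacent tissue at 0, 2.9 and 23. SHP1 had 159, 229 and 376 in nectary samples, against 34.9, 63.8 and 78.6 in adjacent tissue. None of these groups overlapped, and the log2 fold changes were 3.66 (SE 0.35, limma adjusted p = 3.66e-09) for AP3, 6.51 (SE 1.32, 0.00136) for PI and 2.08 (SE 0.43, 0.00155) for SHP1. These 3 calls were kept with any single sample left out.

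AP3 and PI also formed the list of stamen and petal markers, so that list summed to 2497 to 3479 in nectary samples and to 177 to 235 in adjacent tissue. Carpel and ovule markers, with SHP1 as the called member of 4 tested, summed to 411 to 802 in nectary samples and to 199 to 266 in adjacent tissue, and the ovule gene INO was at 0 in all nectary samples. Pollen markers gave 0 calls among 3 tested in limma (0 also at an unadjusted p under 0.05) and summed to 16.9 to 31.9 in nectary samples and 36.9 to 95.9 in adjacent tissue. Their part in the other results was not tested. Among single cotton genes, the PI match XP_016717628.1, described as PMADS 2-like, had 175, 240.4 and 233 in nectary samples, against 0, 2.9 and 0 in adjacent tissue. LOC107900914, described as AGL6 and so a further MADS-box factor, had 1027, 1055 and 1079 in nectary samples, against 359, 145 and 151 in adjacent tissue, a log2 fold change of 2.40 (SE 0.47, limma adjusted p = 0.00122). The sum over all cotton entries matched to AGL6 was not called, with a log2 fold change of 0.32 (adjusted p = 0.78). In the whole MADS-box family 7 of 84 genes were higher and 1 lower (9.52% called, against 4.06% of all cotton genes). The lower count was 0 without nectary sample 1 or 3 or adjacent sample 3. The higher count was 3 to 6 with 1 sample left out. It was 4 without nectary sample 1 or adjacent sample 1, and 3 without nectary sample 3 or adjacent sample 2.

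**Figure D2:**
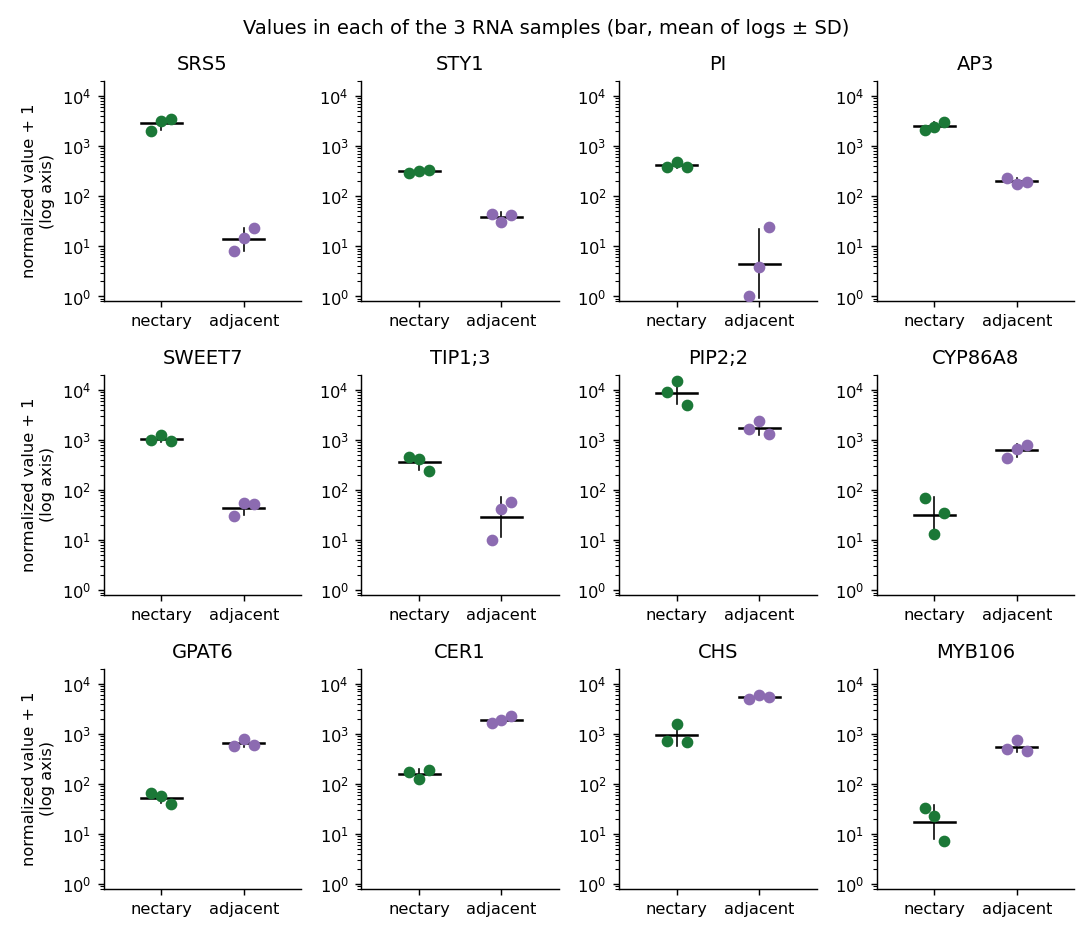
Normalized value of 12 genes in each RNA sample on a log axis, nectary samples left and adjacent samples right, with bars at the mean of the log values and their SD. SRS5, STY1, PI, AP3, SWEET7, TIP1;3 and PIP2;2 lay higher in the nectary, and CYP86A8, GPAT6, CER1, CHS and MYB106 lay higher in adjacent tissue, without overlap in any of them.

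Further regulators were among the 15 largest rises. LOC107956046, a JAGGED-like zinc-finger gene whose Arabidopsis namesake promotes growth of lateral organs, had 254, 992 and 686 in nectary samples, against 0, 0 and 2.9 in adjacent tissue. LOC107962906, a WOX11-like homeobox gene of a family that acts in stem cell and organ founding, had 583, 609 and 824 in nectary samples, against 0, 6.76 and 0.966 in adjacent tissue. Both were close to absent in the adjacent tissue, with log2 fold changes of 8.47 (SE 1.28) and 8.07 (SE 0.77). LOC107925379, described as myb-related protein 305-like, had 114, 97.6 and 132 in nectary samples, against 7.88, 2.9 and 0 in adjacent tissue. MYB305 is known from tobacco as an activator of nectary genes. The log2 fold change was 5.13 (SE 0.61, limma adjusted p = 4.52e-07). LOC107923687, a LOB domain gene matched to LBD11, had 197, 447 and 333 in nectary samples, against 12.8, 0.966 and 3.86 in adjacent tissue. XP_016748849.1, an ATHB-6-like homeobox-leucine zipper gene, was among the more abundant of these factors at 2331, 3303 and 3356 in nectary samples, against 129.9, 166 and 352 in adjacent tissue, a log2 fold change of 3.90 (SE 0.59). Groups were separate in each of these genes, which for those among the 15 largest rises was a condition of the choice.

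The labels of the nectary samples were set against the secretion genes SWEET9, SWEET10 and CWINV4, which gave no uniform result. SWEET9, the nectary sucrose exporter of Arabidopsis, was near 0, at 14.1, 5.34 and 0 in nectary samples and 0, 0 and 0 in adjacent tissue. Only nectary samples 1 and 2 held any signal, and the call (limma adjusted p = 0.038) did not survive leaving out any of nectary samples 1 or 2 or adjacent samples 1, 2 or 3 (adjusted p 0.0952 to 0.318). SWEET10, a close relative, was abundant in both tissues, with 1239, 2501 and 4448 in nectary samples and 1370.3, 2037 and 3232 in adjacent tissue. The groups overlapped fully, with a log2 fold change of 0.20 (SE 0.95, limma adjusted p = 0.973). CWINV4 had 1212, 5547 and 1326 in nectary samples, against 19.9, 282 and 460.2 in adjacent tissue. The lowest nectary sample exceeded the highest adjacent one, with a log2 fold change of 3.89 (SE 1.04, limma adjusted p = 0.0167). It was 3.18 (adjusted p = 0.149) without nectary sample 2 and 2.52 (0.259) without adjacent sample 1. With the compared RNA samples alone in the fit, the limma adjusted p was 0.126. The cell wall invertase gene XP_016738296.1, one of the entries behind that sum, had 699, 1559.5 and 691 in nectary samples, against 5.91, 41.5 and 85.9 in adjacent tissue, and its adjusted p of 0.00564 was 0.0904 without adjacent sample 1.

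SWEET7, another sugar facilitator of the same family, gave the lowest adjusted p among the sugar transporters listed. Its matches summed to 982, 1252 and 955 in nectary samples, against 28.9, 54.1 and 52.7 in adjacent tissue. The nectary samples agreed closely and none overlapped with adjacent tissue, with a log2 fold change of 4.57 (SE 0.61, limma adjusted p = 3.41e-06). The cotton gene XP_016740399.1, described as SWEET4-like and matched to SWEET7, had 545, 700.4 and 419 in nectary samples, against 0, 0 and 8.69 in adjacent tissue. In the SWEET family as a whole 7 of 45 cotton genes were higher and 2 lower (1 lower without any sample but nectary sample 3), and the higher count was 3 to 5 with 1 sample left out (4 without nectary sample 2, 3 without adjacent sample 1 and 4 without adjacent sample 3). At an unadjusted limma p under 0.05, 9 were higher and 6 lower, and the family median was -0.52. The family sums overlapped, at 3776 to 8854 in nectary samples and 3982 to 6011 in adjacent tissue. Of 11 genes of sugar uptake, such as the SUC and STP symporters, 0 were called in either direction (limma, 3 higher and 1 lower at an unadjusted p under 0.05). The phloem loader SUC2 had 781, 437 and 585 in nectary samples and 823, 796 and 922 in adjacent tissue, limma adjusted p = 0.602.

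Of 16 genes of starch synthesis, 0 were called (limma, 2 higher and 0 lower at an unadjusted p under 0.05). Of 20 genes of starch breakdown, 4 were higher and 0 lower (5 and 0 at an unadjusted p under 0.05), with a median of 0.50. The difference between these lists was not tested. The one that kept its call without each single sample was DPE2, the cytosolic glucanotransferase that processes maltose from starch at night. It had 774, 1228 and 731 in nectary samples, against 222, 329.6 and 340.3 in adjacent tissue, with a log2 fold change of 1.60 (SE 0.34, limma adjusted p = 0.00207). The count of higher genes was 1 without nectary sample 3, 1 without adjacent sample 1 and 2 without adjacent sample 2. Of 11 genes of sucrose metabolism, 3 were higher (UGP2, FINS1 and SPP2) and 1 lower (SPS3F), but the higher count was 0 without nectary sample 2 and 1 without adjacent sample 1 or 2. SPS3F lost its call without any sample but adjacent sample 2 (adjusted p 0.0733 to 0.265). UGP2, which makes UDP-glucose, had 2440.5, 6059 and 3809.5 in nectary samples, against 1393, 1848 and 2399 in adjacent tissue, and its adjusted p of 0.0124 was 0.195 without nectary sample 2 and 0.124 without adjacent sample 1. FINS1, a cytosolic fructose-bisphosphatase, had 758, 1582 and 1157 in nectary samples, against 642, 504 and 566 in adjacent tissue, and its adjusted p of 0.0106 was 0.149 without nectary sample 2 and 0.0608 without adjacent sample 2.

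Some water channels were higher in the nectary. Aquaporins are membrane pores for water, divided into plasma membrane (PIP) and vacuolar (TIP) types. Of 65 cotton genes 11 were higher in the nectary and 4 lower (23.1% called, against 4.06% of all cotton genes). The family median was 0.28. The higher count was 7 to 12 with 1 sample left out, the lowest without adjacent sample 1, and the lower count was 2 without adjacent sample 2. TIP1;3 had 456, 423 and 238 in nectary samples, against 8.97, 40.6 and 55.6 in adjacent tissue. PIP2;2 had 9015, 14871 and 5079 in nectary samples, against 1624, 2438 and 1307 in adjacent tissue. The groups were apart in both, with log2 fold changes of 3.65 (SE 0.69, limma adjusted p = 0.000568) and 2.35 (SE 0.47, 0.0013). The cotton gene XP_016680708.1, aquaporin TIP1-1, was the most abundant called member at 10332, 13199 and 9382 in nectary samples, against 1572, 2257 and 1986 in adjacent tissue, a log2 fold change of 2.50 (SE 0.40, adjusted p = 6.7e-05). On the list of 15 proton pumps and aquaporins 3 were higher and 1 lower, with a median of 0.88 that was as low as 0.25 under the alternatives. The lower one was the proton pump AHA10, which lost its call without nectary sample 3 or adjacent sample 1 or 2 (adjusted p = 0.157, 0.0771 and 0.0814). The plasma membrane proton pump AHA2, which energizes secondary transport, had 981, 685 and 1004 in nectary samples, against 274, 336 and 220.5 in adjacent tissue. Its adjusted p of 0.0115 was 0.0534 without nectary sample 3 and 0.0641 without adjacent sample 3.

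Nitrogen transporters split by member. In the NRT1/PTR family, which carries nitrate, peptides and hormones, 10 of 102 genes were higher in the nectary and 12 lower. That is 21.6% called, against 4.06% of all cotton genes. XP_016734882.1, described as NRT1/PTR 7.1-like, had 373, 253 and 128 in nectary samples, against 1.97, 0 and 0.966 in adjacent tissue. XP_016747408.1, described as NRT1/PTR 6.4-like, moved the other way, with 258, 202 and 191 in nectary samples against 1032, 903 and 738 in adjacent tissue. The groups were apart in both, with limma adjusted p of 6.68e-07 for the rise and 0.000347 for the fall, whose log2 fold change was -2.03 (SE 0.36). Among 21 genes of nitrogen and amino acid metabolism 4 were higher and 0 lower (8 higher and 0 lower at an unadjusted limma p under 0.05). The higher count was 2 without nectary sample 2 and 2 without adjacent sample 1. ADT2, an arogenate dehydratase of phenylalanine synthesis, had 526, 1279 and 748 in nectary samples, against 189, 178 and 271 in adjacent tissue, with a log2 fold change of 1.92 (SE 0.29, limma adjusted p = 3.07e-05).

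Many cuticle genes were lower in the nectary. The cuticle is the layer of cutin and wax that seals the plant epidermis, and it is built from long fatty acids that epidermal cells export. Of 28 tested cuticle genes 15 were lower in the nectary and 0 higher (18 lower and 0 higher at an unadjusted limma p under 0.05), against 3.03% of all matches lower. The median log2 fold change was -1.72, and 11 to 14 were lower with 1 sample left out. The list summed to between 32133 and 35488 in nectary samples and to between 100490 and 113841 in adjacent tissue. CER1, which makes the alkanes of the wax, had 173, 124 and 184 in nectary samples, against 1652, 1850.0 and 2216 in adjacent tissue. No nectary sample came near the adjacent range, and the log2 fold change was -3.58 (SE 0.37, limma adjusted p = 1.54e-08).

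Genes of the cutin branch were among those that fell. GPAT6, an acyltransferase that makes cutin monomers, had 64.7, 56.9 and 38.6 in nectary samples, against 579, 781 and 604 in adjacent tissue. CYP86A8, a fatty acid hydroxylase, had 67.6, 12.4 and 34.6 in nectary samples, against 438, 661 and 812 in adjacent tissue. Their log2 fold changes were -3.61 (SE 0.65, limma adjusted p = 0.000302) and -4.27 (SE 0.65, 3.07e-05), with separate groups. KCS2, an elongase of long fatty acids, had 24.4, 31.1 and 47.8 in nectary samples, against 329, 243 and 212 in adjacent tissue. ABCG32, an exporter of cutin precursors, had 39.4, 13.3 and 8.13 in nectary samples, against 138, 105 and 104 in adjacent tissue. The groups were separate here too, at -2.92 (SE 0.62, adjusted p = 0.0023) and -2.73 (SE 0.54, 0.00107). The cotton gene XP_016750810.1, an ABCG15-like transporter, had 71.4, 73.2 and 88.9 in nectary samples, against 506, 393 and 480.0 in adjacent tissue.

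Other lipid-handling families were counted beside them. GDSL esterases and lipases, which include cutin synthases, had 20 of 116 genes lower and 2 higher (0 or 1 higher without nectary sample 2 or 3 or adjacent sample 1 or 2), and the lower count was 10 without nectary sample 2, 12 without nectary sample 3 and 12 without adjacent sample 1. LOC107892117, a GDSL gene matched to the Arabidopsis cutin synthase CUS2, had 1.88, 1.88 and 0 in nectary samples, against 234, 706 and 369 in adjacent tissue, a log2 fold change of -7.61 (SE 0.93, limma adjusted p = 7.12e-07). Lipid-transfer proteins had 10 of 62 genes lower and 4 higher, but the lower count was 1 to 6 with any 1 of the 6 samples left out, the lowest without adjacent sample 3. Lipoxygenases had 4 of 19 lower and 2 higher, and the higher count was 0 with any sample but nectary sample 1 left out. The median of the lipoxygenases was -1.12, yet their summed signal was higher in the nectary. It was 6833 to 14827 in nectary samples and 3930 to 4737 in adjacent tissue. LOX2, the plastid enzyme that starts jasmonate synthesis, had 16.9, 8 and 3.05 in nectary samples, against 129, 216 and 205 in adjacent tissue, a log2 fold change of -4.37 (SE 0.55, adjusted p = 1.23e-06).

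Of 14 tested trichome and epidermis genes 3 were lower and 0 higher (6 lower and 1 higher at an unadjusted limma p under 0.05), and the same count of 3 was found with any single sample left out. MYB106, which shapes conical cells and trichomes and activates cuticle genes, had 31.9, 21.3 and 6.1 in nectary samples, against 504, 751 and 449.6 in adjacent tissue. MYB16, its close relative, had 31.9, 30.2 and 36.6 in nectary samples, against 245, 213 and 301 in adjacent tissue. Their log2 fold changes were -5.00 (SE 1.06, limma adjusted p = 0.00215) and -2.89 (SE 0.33, 2.08e-07), and neither pair of groups overlapped. PDF2, a homeobox factor of epidermal identity, was low in both tissues, with 6.57, 0.889 and 2.03 in nectary samples and 32.9, 15.5 and 31.6 in adjacent tissue (adjusted p = 0.00315). The summed level of the list was 2259 to 3025 in nectary samples and 2942 to 3546 in adjacent tissue. The part of these epidermal markers in the cuticle result was not tested.

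**Figure D3:**
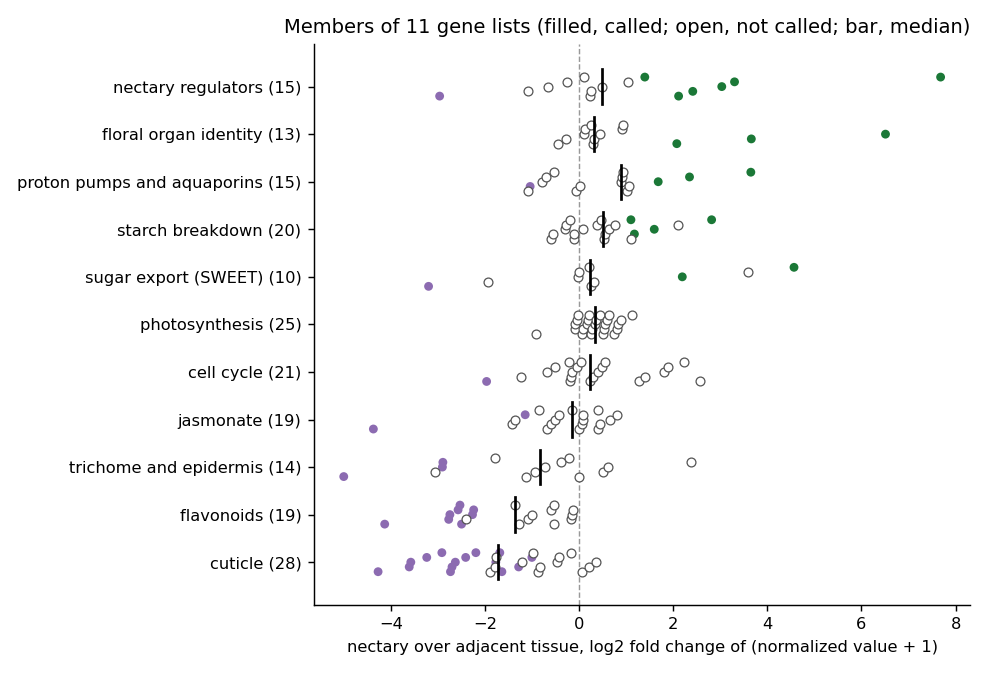
Log2 fold change, nectary over adjacent tissue, of each tested member of 11 gene lists. Green filled points were called higher, purple filled points called lower, open points not called, and bars mark medians, which were -1.72 for cuticle genes, -1.36 for flavonoid genes and 0.33 for photosynthesis genes.

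Several flavonoid genes were also lower in the nectary. Flavonoids are phenylalanine-derived pigments and ultraviolet screens, and condensed tannins are made from them. Of 19 tested genes 8 were lower and 0 higher, against 3.03% of all matches lower. At an unadjusted limma p under 0.05, 11 were lower and 0 higher. No member had a positive log2 fold change, and the median was -1.36. The lower count was 5 without nectary sample 3 and 6 or 7 without any other single sample. Sums over the list were 7318 to 13954 in nectary samples and 28302 to 36060 in adjacent tissue. PAL1, the entry enzyme of the pathway, had 195, 287 and 186 in nectary samples, against 1217, 1761 and 1485 in adjacent tissue. CHS, the first committed enzyme, had 721, 1583 and 692 in nectary samples, against 4899, 5867 and 5319 in adjacent tissue. All nectary samples were below all adjacent samples, with log2 fold changes of -2.75 (SE 0.53, limma adjusted p = 0.000864) and -2.53 (SE 0.55, 0.0026). ANR, which leads to condensed tannins, had 377, 1000.4 and 651 in nectary samples, against 2877, 4031 and 3827 in adjacent tissue, a log2 fold change of -2.50 (SE 0.53, 0.00198). MYB12, an activator of flavonol genes, was listed at 0 in all nectary samples, against 13, 16.4 and 21.1 in adjacent tissue (adjusted p = 0.00196).

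Large falls were found for genes of cell wall and seed storage type proteins. XP_016732715.1, a putative cell wall protein, had 50.7, 5.63 and 0 in nectary samples, against 5314, 14186 and 9116 in adjacent tissue. LOC107947568, with the same description, had 40.4, 0 and 20.9 in nectary samples, against 2953, 8507 and 5474 in adjacent tissue. Both were near absent in the gland and high beside it, with log2 fold changes of -10.30 (SE 1.63, limma adjusted p = 6.88e-05) and -9.06 (SE 1.05, 3.09e-07). Kunitz-type proteins, which include protease inhibitors and 21 kDa seed proteins, had 8 of 16 genes lower and 0 higher (also 8 and 0 at an unadjusted p under 0.05), with a median of -2.33 and 7 or 8 lower with 1 sample left out. XP_016726763.1, a 21 kDa seed protein-like gene, was listed at 0 in all nectary samples, against 558, 997 and 580.4 in adjacent tissue (adjusted p = 1.51e-10). LOC107938188, of the same description, was also listed at 0 in all nectary samples, against 191, 419 and 300.3 in adjacent tissue (adjusted p = 7.74e-10). LOC107897809, the most abundant called member, had 31.9, 10.3 and 8.36 in nectary samples, against 1475, 2670.2 and 1051 in adjacent tissue. Genes of this family may share reads, which was not tested.

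Other secreted and defence proteins went in both directions. Of 15 listed, 2 were higher and 2 lower, and the lower count was 1 without nectary sample 2 or 3 or adjacent sample 1 or 2. PR1-like, a relative of the pathogenesis-related protein PR1, had 102, 116 and 440.2 in nectary samples, against 0, 0 and 6.71 in adjacent tissue. GER3, a germin of the cell wall, had 7.51, 12.4 and 8.13 in nectary samples, against 209, 379 and 392 in adjacent tissue. Each gene separated the groups, with log2 fold changes of 6.47 (SE 1.19, limma adjusted p = 0.000441) and -4.96 (SE 1.24, 0.0107). Peroxidases, a family with roles in wall cross-linking and in keeping nectar free of microbes, had 15 of 80 genes higher and 4 lower. That is 23.8% called, against 4.06% of all cotton genes. The higher count was 9 without adjacent sample 2 and 11 to 14 without any other sample, and the lower count was 1 or 2 with any of the 6 samples left out. XP_016723143.1, peroxidase 4-like, had 807, 1253 and 1005 in nectary samples, against 27.6, 73.4 and 134 in adjacent tissue, a log2 fold change of 3.93 (SE 0.47, adjusted p = 5.95e-07). PRX52, its Arabidopsis match, summed to 2141, 2211 and 1936 in nectary samples, against 541, 643 and 575 in adjacent tissue. Chitinases had 5 of 43 lower and 1 higher (14.0% called), with 3 lower without nectary sample 2, adjacent sample 1 or adjacent sample 3. LOC107921281, endochitinase 2-like, had 4.69, 0 and 7.32 in nectary samples, against 152, 127 and 183 in adjacent tissue.

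Auxin-responsive genes, which respond to the growth hormone auxin, fell in number more than any other family counted apart from the much larger receptor-like kinases. Of 167 tested, 31 were lower and 3 higher, with a median of -0.79, and the lower count was 21 to 32 with 1 sample left out. LOC107896141, described as auxin-induced protein 15A-like, had 2.82, 4.69 and 0 in nectary samples, against 477, 278 and 513 in adjacent tissue, a log2 fold change of -7.20 (SE 0.89, limma adjusted p = 9.78e-07). TCP factors, which balance cell division and differentiation in leaves and petals, had 6 of 53 lower and 0 higher (11.3% called). For all cotton genes the share called was 4.06%. The called lower count was 3 without nectary sample 3, and 23 were lower and 3 higher at an unadjusted limma p under 0.05. LOC107888532, TCP13-like, had 5.63, 5.63 and 0 in nectary samples, against 306, 547 and 380.5 in adjacent tissue. YABBY factors, which mark the outer side of lateral organs, had 5 of 24 lower and 0 higher (8 and 0 at an unadjusted p under 0.05), with 3 lower without nectary sample 1, nectary sample 3 or adjacent sample 3. The summed YABBY signal overlapped between tissues, at 4310 to 6770 in nectary samples and 4922 to 6528 in adjacent tissue. LOC107962606, YABBY 5-like, had 30, 25.4 and 51.2 in nectary samples, against 380.0, 331 and 412 in adjacent tissue. In all 3 genes the nectary stayed below the lowest adjacent sample.

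Of 21 gibberellin-regulated peptides counted as a family 1 was higher and 0 lower (9 higher and 3 lower at an unadjusted limma p under 0.05). The family's share called of 4.76% is near the 4.06% of all cotton genes. LOC107961547, gibberellin-regulated protein 4-like, had 104, 188 and 236 in nectary samples and was listed at 0 in all adjacent samples (limma adjusted p = 0.000144). LOC107942981, described as GAST1-like after a gibberellin-stimulated gene of tomato and not counted in that family, had 22.5, 13.1 and 137 in nectary samples, against 2795, 5605 and 3856 in adjacent tissue (log2 fold change -6.78, SE 1.31, adjusted p = 0.000933). LOC107888338, a nicotianamine synthase-like gene, had 98.6, 131 and 178 in nectary samples and was listed at 0 in adjacent tissue (adjusted p = 4.67e-10). Nicotianamine chelates iron and other metals for transport. XP_016669180.1, described as caffeic acid 3-O-methyltransferase-like, had 345, 678 and 457 in nectary samples, against 2.95, 5.79 and 11.6 in adjacent tissue, a log2 fold change of 6.09 (SE 1.00).

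Genes of primary growth and photosynthesis gave few calls. Of 25 photosynthesis genes 0 were called in limma, and 0 passed an unadjusted p under 0.05 in either direction, with a median of 0.33. The photosystem subunit PSBR had 15729, 15646 and 24935 in nectary samples, against 20161, 16678 and 22195 in adjacent tissue, with overlapping groups. Of 21 cell cycle genes 1 was lower and 0 higher (1 lower and 3 higher at an unadjusted p under 0.05). It was the G1 cyclin CYCD3;1, with 134, 60.5 and 78.3 in nectary samples, against 329.9, 316 and 373 in adjacent tissue (log2 fold change -1.97, SE 0.42, limma adjusted p = 0.00259). Histones had 0 of 75 called (4 higher and 3 lower at an unadjusted p under 0.05), and 16 genes of vesicle secretion had 0 called and 0 at an unadjusted p under 0.05. Among 23 genes of senescence and ethylene 1 was higher and 2 lower (0 to 2 each way with 1 sample left out, and 0 in both directions without nectary sample 2), and among 19 jasmonate genes 0 were higher and 2 lower (0 and 4 at an unadjusted p under 0.05). The second jasmonate member besides LOX2 was MYC4, a transcription factor of the jasmonate response, with 235, 214 and 177 in nectary samples, against 507, 469.7 and 407 in adjacent tissue (log2 fold change -1.15, SE 0.27, adjusted p = 0.00536). Vascular markers summed to 1280 to 2431 in nectary samples and to 2989 to 4535 in adjacent tissue. The phloem protein SEOB was the one called of 11 (limma adjusted p = 0.0133, and 0.0685 without nectary sample 2 or 0.0798 without adjacent sample 2), the xylem regulator VND7 was at 0 in all nectary samples, and the part of vascular tissue in the other results was not tested.

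Larger families gave calls in both directions, and their shares called are read against 4.06% of all cotton genes. WRKY factors, which act in stress and defence, had 13 of 179 genes higher and 3 lower (8.94% called). At an unadjusted limma p under 0.05, 26 were higher and 22 lower, and the median was 0. The summed WRKY signal was lower in the nectary, at 10271 to 12793 against 16203 to 23706.5 in adjacent tissue. With 1 sample left out 6 to 11 WRKY genes were called higher (6 without nectary sample 2 and 8 without adjacent sample 1). Between 0 and 6 were called lower (0 without nectary sample 2 or adjacent sample 3, 1 without nectary sample 3 and 6 without nectary sample 1). MYB factors had 4 of 176 higher and 15 lower (10.8%), with 2 higher without adjacent sample 1, 8 lower without nectary sample 2 or adjacent sample 1 or 2, and 9 lower without nectary sample 3. Cytochromes P450, oxidases of many lipid and phenolic pathways, had 7 of 259 higher and 20 lower (10.4%), with 2 to 4 higher and 10 to 15 lower without any sample but adjacent sample 3. Receptor-like kinases, the cell surface receptors of plants, had 11 of 1046 higher and 41 lower, and their share of 4.97% is near that of all genes. The lower count was 15 without nectary sample 3, 42 without nectary sample 1 and 19 to 25 without any other, with 5 to 7 higher in each case.

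Metallothionein genes were abundant in both tissues. LOC107958011, metallothionein-like protein 2, a small cysteine-rich metal-binding protein, had 143667, 160184 and 210917 in nectary samples, against 20379.6, 24425 and 28447 in adjacent tissue. The groups did not overlap, and the log2 fold change of 2.81 (SE 0.69, limma adjusted p = 0.0111) had an adjusted p of 0.0567 without nectary sample 3, 0.0657 without adjacent sample 1, 0.102 with floral RNA samples alone and 0.317 with the compared RNA samples alone. LOC107944008, another metallothionein gene, had 67651, 99270.3 and 164389 in nectary samples and 74512, 151252 and 96201 in adjacent tissue, with full overlap. XP_016677413.1, the late embryogenesis abundant protein Lea5-A, was among the 5 most abundant in adjacent tissue, with 53990.2, 9417 and 76678 in nectary samples and 223743, 51648 and 146176 in adjacent tissue, and it was not called (log2 fold change -1.81, SE 1.01, adjusted p = 0.464).

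The same contrast was then set against those of the earlier stages, secretory (3 nectary and 3 adjacent samples) and presecretory (2 and 3), by testing the difference of the nectary-over-adjacent changes in the same limma fit. Against the secretory stage 11 cotton genes differed (0.0239%), with 7 positive (0.0152%) and 4 negative (0.00867%). The count was 17 without postsecretory nectary sample 2, 6 without nectary sample 3 and 68 without adjacent sample 3. Against the presecretory stage 188 differed (0.408%), with 102 positive (0.221%) and 86 negative (0.186%), and 106 to 214 with 1 postsecretory sample left out (106 without nectary sample 1, 117 without nectary sample 3, 115 without adjacent sample 1 and 113 without adjacent sample 2). Of the Arabidopsis matches, 6 differed from the secretory stage (0.0425%), 4 with a positive (0.0283%) and 2 with a negative difference (0.0142%). Against the presecretory stage it was 162 (1.15%), 89 positive (0.630%) and 73 negative (0.517%). Of the cuticle, flavonoid and nectary regulator genes, 0 were called in either difference in limma. At an unadjusted p under 0.05 there were 3, 0 and 5 of them against the secretory and 5, 3 and 1 against the presecretory stage.

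SWEET9 differed from the secretory stage. Its matches had 65.3 and 28 in presecretory, 349, 356 and 166 in secretory and 14.1, 5.34 and 0 in postsecretory nectaries, while all adjacent samples stayed between 0 and 4.97. The nectary-over-adjacent change was lower at the postsecretory than at the secretory stage (log2 difference -5.05, SE 0.93, limma adjusted p = 0.0144), and it was -3.96 (adjusted p = 0.110) without nectary sample 3. The call was also lost with a pseudocount of 0.5 (adjusted p = 0.0931), a filter of 50 in 3 RNA samples (0.129), the compared RNA samples alone (0.319) and floral RNA samples alone (0.2395). The cotton gene XP_016707926.1, SWEET9-like, had 28.1 and 22.7 in presecretory and 223, 249 and 101 in secretory nectaries, and was listed at 0 in postsecretory nectaries and in adjacent tissue throughout. Its difference was -7.48 (SE 0.50, adjusted p = 8.8e-13) against the secretory and -4.72 (SE 0.53, 1.34e-06) against the presecretory stage.

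SWEET10 stood apart from SWEET9 in its adjacent tissue, which held more of it at the later stages, a comparison that was not tested. In nectaries it had 7474 and 1970.2 at the presecretory, 6757, 17186 and 11179 at the secretory and 1239, 2501 and 4448 at the postsecretory stage. In adjacent tissue it had 75.3, 106 and 51.4, then 1273, 1375 and 2839, then 1370.3, 2037 and 3232. The difference against the presecretory stage was -5.47 (SE 1.43, limma adjusted p = 0.0464, and 0.0576 to 0.141 with any 1 of the 6 postsecretory samples left out), and that against the secretory stage was not called (-2.47, SE 1.35, adjusted p = 0.783). CWINV4 had 74865 and 27220.1 in presecretory, 17270.1, 21036 and 12979 in secretory and 1212, 5547 and 1326 in postsecretory nectaries. Levels were in falling order over the stages without overlap, yet the differences in contrast were not called (0.74, SE 1.47, against the secretory stage and -4.62, SE 1.56, adjusted p = 0.147, against the presecretory stage). SWEET7 and SRS5 had contrasts that were not called as different from either earlier stage.

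**Figure D4:**
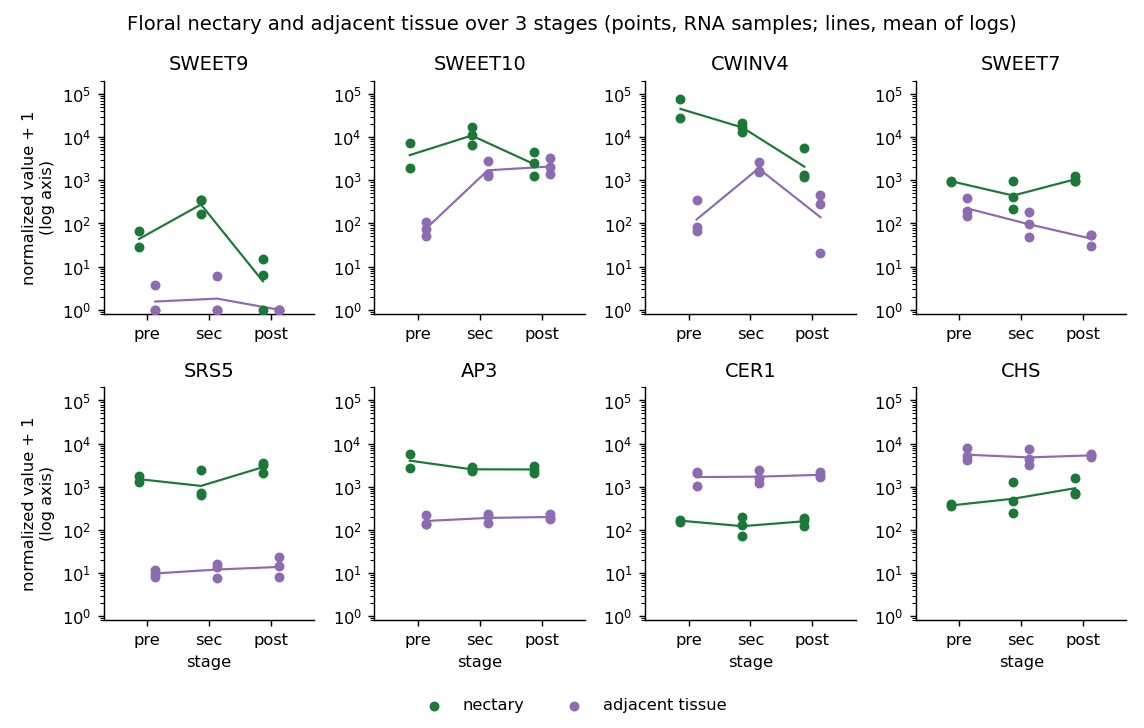
Normalized value on a log axis in nectary and adjacent samples at the presecretory, secretory and postsecretory stage for 8 genes. SWEET9 reached 349, 356 and 166 in secretory nectaries and 14.1, 5.34 and 0 in postsecretory ones, while SRS5, AP3, CER1 and CHS kept nectary and adjacent samples apart at every stage.

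Some photosynthesis genes differed from the presecretory stage. Of 25, 5 had a positive difference (0.630% of all matches did) and 0 a negative one, and the median nectary-over-adjacent log2 change of the list was -1.79 at the presecretory, -0.33 at the secretory and 0.33 at the postsecretory stage, against -0.03, -0.11 and -0.03 for all matches. The 5 were PSAF, PSAG, PSAL, PSBP1 and FD2, with differences of 1.92 to 2.93. They fell outside the naming rule and were chosen after their values were seen. PSAL kept its call with any single postsecretory sample left out and the other 4 did not, with adjusted p of up to 0.145. At an unadjusted p under 0.05, 19 of the 25 differed. PSBR, the most abundant listed gene, had 3028 and 1866 in presecretory, 5124, 2093 and 13660.2 in secretory and 15729, 15646 and 24935 in postsecretory nectaries, and its difference was not called (1.61, SE 0.73, limma adjusted p = 0.398). The cotton aquaporin gene XP_016680708.1 had 1542 and 2111 in presecretory, 3149.8, 2420.5 and 6822 in secretory and 10332, 13199 and 9382 in postsecretory nectaries, a difference of 3.22 (SE 0.59, adjusted p = 0.00433) against the presecretory stage.

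Several genes abundant in the presecretory gland were low or listed at 0 in the postsecretory one. ADT2 had 12112 and 7724 in presecretory, 2802, 3961 and 3641 in secretory and 526, 1279 and 748 in postsecretory nectaries, with adjacent tissue between 142 and 389 throughout. Its difference against the presecretory stage was -3.99 (SE 0.44, limma adjusted p = 9.75e-07), and every nectary sample exceeded every adjacent sample of its stage. XP_016755460.1, a probable terpene synthase, had 369 and 283, then 28.3, 33.8 and 22.8, then 0, 2.82 and 0 in nectaries of the 3 stages, and was listed at 0 in adjacent tissue (difference -7.70, SE 0.59, adjusted p = 7.4e-11). XP_016704226.1, described as an epidermis-specific secreted glycoprotein EP1-like, had 392 and 192, then 31.1, 33.8 and 12.5, and was listed at 0 in postsecretory nectaries (difference -8.11, SE 1.23, adjusted p = 0.000412). In the opposite direction, XP_016734882.1, the NRT1/PTR 7.1-like gene, had 0 and 0.948 in presecretory, 16.4, 1.88 and 43.3 in secretory and 373, 253 and 128 in postsecretory nectaries, a difference of 6.52 (SE 1.27, adjusted p = 0.00806).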

How the data were processed

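RNA was sequenced from dissected cotton nectaries and adjacent tissues with an unstranded library kit (TruSeq RNA v2), so that reads of a gene and its antisense partner cannot be told apart. The authors deposited a table of whole-number signal for 49663 protein entries in 102 columns, 51 RNA samples in 2 runs each. Their methods describe mapping, transfer to Arabidopsis genes and upper-quartile normalization for another annotation, and the aligner and scaling of the deposited table are not given in the sources used here. Values were not raw counts: for 3545 of 36459 entries examined, low values fell on whole multiples of a step (median 1.88), which held 98.9% of held-out values against 53.1% by chance, and the step went down with gene length (Spearman's rho -0.394 over 2478 genes). No count model was therefore used.

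Runs were summed and entries were summed to 46672 cotton genes, 30447 entries being named through the RefSeq gene table by accession or description, and to 14166 Arabidopsis matches given in the table. Each RNA sample was scaled to its upper quartile, and the test took in every feature that reached 10 in 2 or more RNA samples (46113 cotton genes, 14133 matches). limma 3.58.1 (R 4.3.3) was fitted to log2(value + 1) of all 51 RNA samples with 1 coefficient per condition and a variance trend, with Benjamini-Hochberg adjustment over all features. The script was tested on simulated data. Stages were compared by the difference of their nectary-over-adjacent changes.

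Single cotton genes named were the 15 largest rises and 15 largest falls with a mean of at least 100 and no overlap. Of 48 description-based families, those with at least 3 called members each gave the most abundant of them. Up to 5 stage differences in each direction and the 5 most abundant genes per tissue were also named. Each of 25 gene lists gave up to 6 called Arabidopsis matches, or the 2 most abundant where none was called. SWEET9, SWEET10 and CWINV4 were always named. For the rises and falls named this way, the lack of overlap was a condition of the choice and not a result. Members, lists and families were chosen with earlier results of these data known. Alternatives were other scalings, pseudocounts and filters, single runs, fewer samples in the fit, a replicate block and leaving out each sample.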

Additional observations from a re-analysis of the deposited data

Results flagged for a closer look

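The nectary-over-adjacent change differed between the postsecretory and the secretory stage, by the limma test of that difference, in 11 cotton genes. The differences are log2 values, postsecretory minus secretory. They were -7.48 for XP_016707926.1 (SWEET9-like), -4.21 for XP_016755460.1 (a probable terpene synthase) and 3.45 for XP_016699337.1 (a probable auxin efflux carrier). XP_016755460.1 lost the call with the compared RNA samples alone (adjusted p = 0.1485) and with floral RNA samples alone (0.0784), and so did XP_016699337.1 (0.0776 and 0.125). Summed over cotton entries, the difference was -5.05 for SWEET9.

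Against the presecretory stage 188 cotton genes differed. Positive differences, postsecretory minus presecretory, were 8.31 for LOC107907449 (early nodulin-93-like), 6.52 for XP_016734882.1 (NRT1/PTR 7.1-like), 6.36 for XP_016750735.1 (indole-3-acetaldehyde oxidase-like), 6.26 for LOC107929880, 6.14 for LOC107933252 (wound-induced protein 1-like), 5.71 for LOC107896177 (an F-box gene), 5.37 for XP_016705834.1 (expansin-A15), 5.27 for LOC107926421 (pectate lyase-like), 3.22 for XP_016680708.1 (aquaporin TIP1-1) and 2.16 for LOC107905445 (a plastid ribosomal protein). Negative differences were -10.23 for XP_016700357.1 (DET2-like), -8.11 for XP_016704226.1 (EP1-like glycoprotein), -8.06 for LOC107912070 and -7.87 for LOC107923157 (both CASP-like 1F1), -7.70 for XP_016755460.1, -4.72 for XP_016707926.1 and -3.01 for LOC107957666 (a heat shock protein of the 70 kDa class). LOC107896177, LOC107926421, LOC107905445, LOC107957666, LOC107907449, XP_016750735.1, LOC107933252 and LOC107923157 lost the call without at least 1 postsecretory sample, with adjusted p of up to 0.1245.

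Among listed Arabidopsis matches, the positive differences from the presecretory stage were 1.92 for PSAF, 2.44 for PSAG, 2.85 for PSAL, 2.93 for PSBP1 and 2.34 for FD2, all of photosynthesis. They were 3.29 for the plastid glutamine synthetase GLN2, 3.29 for the chitinase HCHIB, 2.31 for DXS of plastid isoprenoid synthesis, 2.27 for the aquaporin PIP1;4 and 2.23 for the aquaporin TIP1;1. Negative differences were -5.47 for SWEET10, -4.33 for the osmotin OSM34, -3.99 for ADT2, -2.30 for the sucrose synthase SUS4 and -1.45 for the amino acid permease AAP7. Of these genes, PSAL, GLN2, HCHIB, TIP1;1, AAP7 and ADT2 kept the call with each single postsecretory sample left out. The presecretory nectary has 2 RNA samples.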

How the results depend on the processing

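Calls in the contrast of nectary and adjacent tissue moved with single samples and with the samples fitted. The 1871 cotton genes called became 1083 to 1644 with 1 sample left out, the 873 higher 483 to 742, the 998 lower 591 to 902, and the 838 Arabidopsis matches 435 to 743, while other settings gave 1535 to 2605 cotton genes. Of the 1871, 1041 to 1411 were also called with 1 sample left out and 1045 with the compared RNA samples alone. Of 121 named genes called, 68 kept the call under each alternative, 53 lost it under at least 1, and 0 changed sign. Fitting the compared RNA samples alone ended 32 of these calls. The 11 genes that differed from the secretory stage became 6 to 68 with 1 sample left out, 17 with scaling to the library total, 65 with a pseudocount of 10, 2 with a filter of 50 in 3 RNA samples, 21 in run 1 alone and 26 in run 2 alone. The 188 against the presecretory stage became 106 to 214 with 1 sample left out and 454 with a pseudocount of 10. The cause was not tested. Scaling to the library total put the median log2 fold change of all genes at -0.125 instead of -0.0251. A pseudocount of 10 shrank the fold changes of genes near 0 in one tissue.

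A replicate block gave 1879 cotton genes called, ended the call of 0 named genes in this contrast, and gave 17 genes against the secretory stage. It ended the call of the presecretory difference for SWEET10 (adjusted p = 0.0503), PSAG (0.0508), LOC107933252 (0.0538) and OSM34 (0.0619). Samples of the same number correlated at 0.128, 0.0787 and 0.114 in their deviations from the group means, each best with its own number, which is a hint from the data and not from the design.

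Sign changes were limited to genes not called. With 1 sample left out, the log2 fold change ranged from -0.242 to 0.680 for SWEET10, -0.317 to 0.0192 for PSBR, -0.534 to 0.592 for LHCB1.4, -0.00802 to 0.312 for ARA5, -0.231 to 0.0557 for DRP1A, -0.908 to 0.197 for MS2, -0.309 to 0.218 for LOC107924787, -0.312 to 0.283 for LOC107959693, -0.326 to 0.298 for LOC107889930 and -0.326 to 0.314 for LOC107944008. LHCB1.4 was 0.00946 in run 1 alone, LOC107923157 was 1.07 in run 2 alone, and LOC107944008 was -0.0559 with median-of-ratios size factors, -0.0967 with scaling to the library total and -0.0150 in run 2 alone. Depth limits genes with values near 10 or less, and 3 samples a tissue limit the rest.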
